A study of Mus musculus with 6 samples.

Results

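Transcripts of 10 genes for regulators of CD8 T cell fate, Prdm1, Id2, Tbx21, Irf4, Irf8, Eomes, Tcf7, Lef1, Bach2 and Id3, were followed in mouse T cells kept with disulfiram (DSF) or with dimethyl sulfoxide (DMSO). They were picked by gene symbol from the 55536 genes of the deposited table, and all 10 were among the 14318 genes that passed the filter on low counts. Primary OT-I T cells of lymph nodes, labelled wildtype, were cultured in serum-containing medium and exposed to DSF or DMSO for 2 h, with 3 RNA-seq libraries in each group. The OT-I transgene gives T cells a receptor that sees an ovalbumin peptide, and most of these cells are CD8 T cells. DMSO is a solvent, and DSF is a thiuram disulfide that inhibits aldehyde dehydrogenases and is given against alcohol dependence. The labels name neither the DSF concentration nor any stimulation of the cells, nor separate mice or cultures behind the libraries of a group, which they call biological replicates, so the p-values measure the spread between these libraries, whatever its source. The groups are coded DO and DF in the deposited table, and every direction below rests on reading DO as DMSO and DF as DSF.

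A CD8 T cell that meets antigen can become a short-lived effector cell or a long-lived memory cell, and opposing transcription factors steer that choice. BLIMP-1, the product of Prdm1, together with ID2 and T-bet (Tbx21) drives effector differentiation. TCF-1 (Tcf7), LEF1, BACH2 and ID3 hold cells in a naive or memory state, EOMES serves both effector function and memory, and IRF4 and IRF8 act after receptor engagement. ID2 and ID3 lack a DNA-binding region and work by sequestering E proteins, which bind E-box elements.

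With DSF, 8 of the 10 transcripts fell by edgeR's quasi-likelihood test at a Benjamini-Hochberg adjusted p under 0.05 over all genes tested, and they came from both sides of this choice. Prdm1 fell furthest, to 0.566 of its DMSO level, followed by Id2, Tbx21, Lef1, Irf8, Eomes, Bach2 and Irf4. The 2 that did not pass, Tcf7 and Id3, belong to the memory side. No member rose, also at an unadjusted p under 0.05 and by DESeq2 or limma-voom, each of which gave 0. Over all tested genes 11.3% were called lower and 11.6% higher. The median log2 fold change was -0.35 over the 10 genes and -0.003 over all tested genes. In bulk RNA, fewer cells of a type and less RNA per cell cannot be told apart.

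Libraries held 18082264 to 21893720 estimated counts, and 21286 to 21779 genes had a count above 0. Across genes, log2 CPM (counts scaled to library size) of replicate libraries had correlations of 0.9917 to 0.9928, and no pair agreed within counting error, at 2.22 to 4.28 in chi-square per degree of freedom. Markers of T cells were high, with a summed level of 2415 to 2458 TPM (transcript abundance scaled by length and library size) over 10 genes in DMSO and 2327 to 2371 in DSF. Cd4 averaged 0.53 and 0.733 TPM.

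The 10 genes lie on 8 chromosomes of GRCm38 in the GENCODE M21 annotation. Prdm1 (ENSMUSG00000038151) spans chr10:44437177-44528501 on the minus strand and Id2 (ENSMUSG00000020644) chr12:25093799-25097140 on the minus strand. Tbx21 (chr11:97098071-97115331) and Tcf7 (chr11:52252371-52283014) share a chromosome, as do Bach2 (chr4:32238804-32586108) and Id3 (chr4:136143497-136145755). Irf4 lies at chr13:30749226-30766976, Irf8 at chr8:120736358-120756694, Eomes at chr9:118478212-118486132 and Lef1 at chr3:131110471-131224356. Exons of Lef1, Bach2 and Eomes overlap antisense genes over 13.7, 5.4 and 2.8% of their bases. No source used here says if the counting was strand-specific, so these 3 counts are uncertain to that extent.

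RefSeq start sites (GRCm38.p6) were matched for all 10 genes, 15 starts in all. The 250 bases before each start were searched on both strands for elements that members of the set bind and for the E-box of E proteins. The windows printed here are those of fallen genes that hold a match other than the E-box, in capitals, on the strand of the gene and 5′ to 3′. The Prdm1 window (chr10:44458749-44458998, minus strand) has TGAATCA, beginning 48 bases before the start. It matches TGANTCA, a loose form of the element of AP-1 and BACH proteins in which N is any base. The usual core of that element has C or G in place of N, so this stretch differs from it. The Eomes window (chr9:118477939-118478188, plus strand) has a pair of GAAA repeats 2 bases apart, the element of IRF proteins and BLIMP-1, beginning 154 bases before the start. The Bach2 window (chr4:32417185-32417434, plus strand) has CTTTGA, the TCF/LEF element, on the opposite strand, 93 bases before the start. The window of the fourth Lef1 start (chr3:131156044-131156293, plus strand) has CTTTGA on the opposite strand at 180 and 120 bases before the start.
Prdm1: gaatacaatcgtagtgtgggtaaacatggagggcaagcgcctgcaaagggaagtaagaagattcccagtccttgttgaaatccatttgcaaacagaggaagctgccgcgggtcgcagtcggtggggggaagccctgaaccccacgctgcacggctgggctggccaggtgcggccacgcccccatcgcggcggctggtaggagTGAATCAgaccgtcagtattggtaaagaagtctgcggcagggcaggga
Eomes: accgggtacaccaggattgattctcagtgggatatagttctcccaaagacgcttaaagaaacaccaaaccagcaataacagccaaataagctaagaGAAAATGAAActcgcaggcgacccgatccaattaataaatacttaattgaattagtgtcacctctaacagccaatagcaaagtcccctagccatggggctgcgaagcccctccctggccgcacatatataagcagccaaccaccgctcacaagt
Bach2: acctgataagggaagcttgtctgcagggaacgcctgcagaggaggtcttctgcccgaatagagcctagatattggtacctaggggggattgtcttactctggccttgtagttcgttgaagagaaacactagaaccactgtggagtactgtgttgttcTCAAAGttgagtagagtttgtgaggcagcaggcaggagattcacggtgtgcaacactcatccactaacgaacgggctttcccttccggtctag
Lef1: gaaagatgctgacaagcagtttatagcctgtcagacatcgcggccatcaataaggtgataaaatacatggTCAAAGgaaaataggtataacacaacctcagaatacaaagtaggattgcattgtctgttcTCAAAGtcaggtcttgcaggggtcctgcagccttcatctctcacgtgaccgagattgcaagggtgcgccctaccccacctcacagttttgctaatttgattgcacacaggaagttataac

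Among 32851 RefSeq windows of this length, 6.7% hold TGANTCA, 3.0% the spaced GAAA pair, 13.8% CTTTGA and 1.1% the T-box element AGGTGTGA, which no member window holds. Of the 15 member windows, 1 holds TGANTCA, 1 the spaced GAAA pair and 2 CTTTGA. The E-box CANNTG, not in capitals, is in 9 of the 15 member windows and in 66.2% of all windows. These are matches of letters and were not tested as binding sites. The windows of Bach2, Prdm1 and the fourth Lef1 start lie inside the annotated spans of their genes.

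Levels were compared between genes in TPM, which is scaled by length. In DMSO the order was Irf8, Id2, Irf4, Tcf7, Lef1, Tbx21, Bach2, Eomes, Id3 and Prdm1, from 158 ± 5.19 TPM for Irf8 to 11.9 ± 0.565 TPM for Prdm1 (mean ± SD, n = 3). Neighbours in that order had separate ranges except Bach2 and Eomes. In DSF Irf4, at 87.4 ± 1.13 TPM, stood above Id2, at 82.5 ± 1.15 TPM, and the rest of the order was as in DMSO, again with overlapping ranges for Bach2 and Eomes alone. Prdm1 was the least abundant of the 10 in both groups, and 50.8% of tested genes had a higher mean TPM than Prdm1 in DMSO against 62.2% in DSF.

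**Figure D1:**
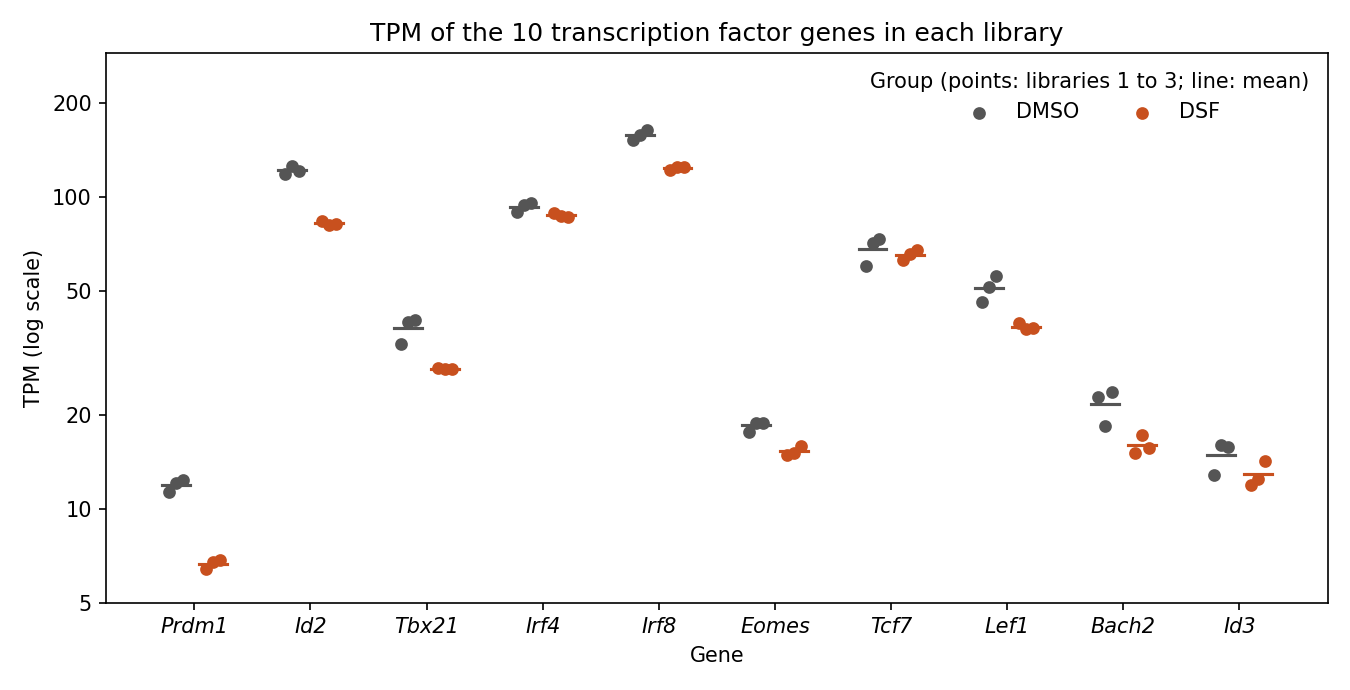
TPM of each gene on a log axis, with 1 point per library (DMSO grey, DSF orange, libraries 1 to 3 from left to right) and a line at the group mean. The DSF points lie below all DMSO points for 8 genes, and the points of Tcf7 and Id3 overlap between groups.

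Among the regulators of effector fate, Prdm1 encodes a repressor that shuts down memory genes as effector cells mature. Its level was 11.3, 12.1 and 12.4 TPM in the DMSO libraries and 6.4, 6.77 and 6.85 TPM in the DSF libraries. Each DSF library was below each DMSO library, and the gap was wider than the spread within either group. In CPM, Prdm1 fell by 43.4%, from 42.5 ± 1.38 to 24 ± 1.02 (mean ± SD, n = 3 per group), a log2 fold change of -0.82 ± 0.06 (SE) with edgeR's adjusted p of 2.81e-12. It ranked 91st in size among the 1621 called falls.

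Id2, whose product restrains E proteins in effector cells, was at 119, 126 and 121 TPM in DMSO and at 83.8, 81.6 and 82.1 TPM in DSF. All 3 DSF libraries lay close together and far below the DMSO libraries. The log2 fold change was -0.59 ± 0.05 (SE; edgeR's adjusted p = 9.89e-12). Its targets among the E proteins showed no call: Tcf3, Tcf4 and Tcf12 had log2 fold changes between -0.06 and -0.02. Of these 3, 0 passed at edgeR's unadjusted p under 0.05, and 0 at an adjusted p under 0.05 by DESeq2 or limma-voom. The relatives Id1 and Id4 were not tested, Id4 having no count in any library.

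Tbx21 encodes T-bet, the T-box factor behind interferon-gamma production. It stood at 33.9, 39.6 and 40.2 TPM in DMSO and at 28.3, 28.1 and 28 TPM in DSF. The DSF libraries were nearly equal, and DMSO library 1 was the nearest of the DMSO libraries to them. The log2 fold change was -0.46 ± 0.05 (SE; edgeR's adjusted p = 6.16e-08). Eomes, the T-box relative that also serves memory cells, was at 17.6, 18.9 and 18.9 TPM in DMSO and at 14.9, 15.1 and 15.9 TPM in DSF. Its groups were apart too, and its log2 fold change was -0.31 ± 0.06 (SE; edgeR's adjusted p = 7.28e-05).

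Irf8, which in T cells joins the effector programme and is better known from dendritic and B cells, was the most abundant member, at 153, 158 and 164 TPM in DMSO and 122, 125 and 125 TPM in DSF. The groups did not overlap, and the spread within each was small beside the gap. It fell to 0.768 of its DMSO level (log2 fold change -0.38 ± 0.03 SE; edgeR's adjusted p = 1.49e-10). Irf4, whose level is known to track the strength of receptor signalling, was at 89.7, 94 and 95.6 TPM in DMSO and 88.6, 87.2 and 86.4 TPM in DSF. Its highest DSF library was just below its lowest DMSO library. The log2 fold change of Irf4 was -0.11 ± 0.03 (SE; edgeR's adjusted p = 0.00861), the smallest among the called members. Leaving out DSF library 2 (edgeR's adjusted p = 0.0776) or DSF library 3 (0.0513) ended that call, as did a test on log2(TPM + 1) values (limma's adjusted p = 0.198).

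On the memory side, Lef1, a partner of TCF-1 at shared elements, was at 46.1, 51.4 and 55.9 TPM in DMSO and at 39.4, 37.8 and 38 TPM in DSF. The groups were apart, with DMSO library 1 again the lowest of its group. Its log2 fold change was -0.45 ± 0.05 (SE; edgeR's adjusted p = 1.01e-08). Bach2, whose product occupies AP-1 elements and is known to repress Prdm1, was at 22.9, 18.4 and 23.7 TPM in DMSO and 15.1, 17.2 and 15.7 TPM in DSF. DMSO library 2 came within a small distance of the highest DSF library. Bach2 fell by 18.2% in CPM (log2 fold change -0.29 ± 0.06 SE; edgeR's adjusted p = 0.000551), and the call ended on log2(TPM + 1) values (limma's adjusted p = 0.0524).

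Tcf7 encodes TCF-1, which marks naive, memory and stem-like T cells. Its level was 60.1, 71.4 and 73.5 TPM in DMSO and 62.9, 65.6 and 67.8 TPM in DSF. The lowest of the 6 libraries was DMSO library 1, so the groups overlapped. The log2 fold change was -0.08, with a 95% interval from -0.19 to 0.02, and edgeR's adjusted p was 0.288. Id3, the ID protein of naive and memory cells, was at 12.8, 16 and 15.8 TPM in DMSO and at 11.9, 12.5 and 14.2 TPM in DSF. Here too DMSO library 1 overlapped the DSF libraries. Its log2 fold change was -0.25, with a 95% interval from -0.46 to -0.04, and edgeR's adjusted p was 0.0769. Id3 rested on 168 to 281 counts per library, the fewest of the 10 genes. The missed threshold does not show that either transcript stayed the same, since the intervals allow a fall of Tcf7 to 0.876 and of Id3 to 0.726 of the DMSO level.

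**Figure D2:**
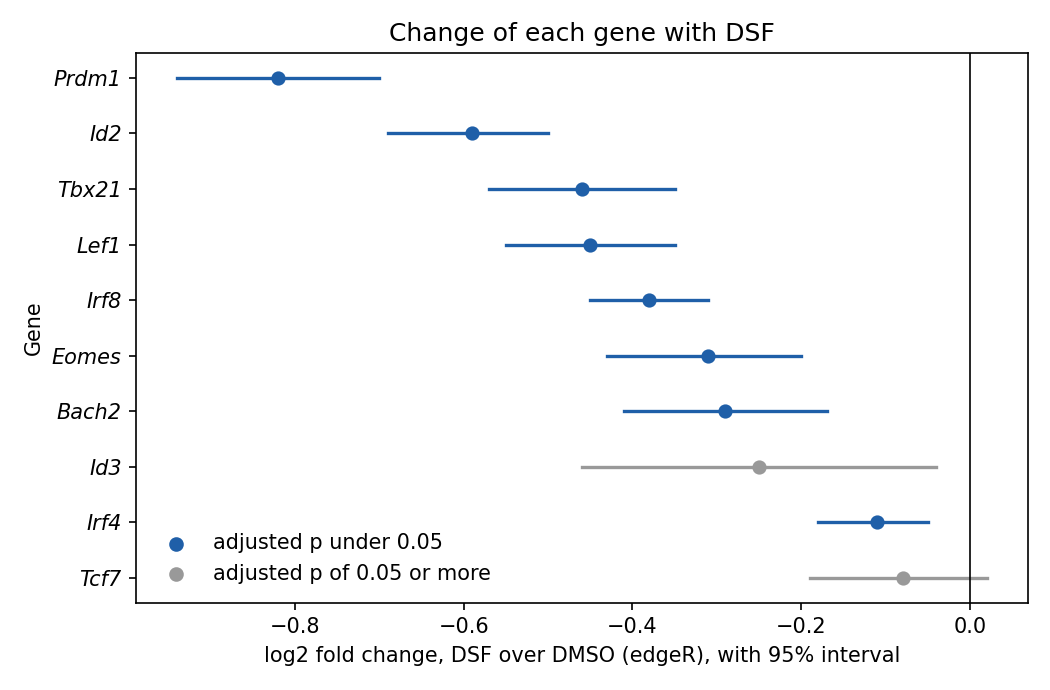
Log2 fold change of each gene with DSF by edgeR (points) and its 95% interval (lines), in blue where the adjusted p was under 0.05. Prdm1 is the farthest from 0 at -0.82, and only the interval of Tcf7 reaches 0.

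Of the libraries left out in turn, only DMSO library 1 changed both missed calls. It had the lowest TPM of its group in 9 of the 10 genes, and in 44.1% of all tested genes. On the CPM scale it was the lowest in 7 of the 10 and in 35.8% of all tested genes. Without it all 10 transcripts passed as lower, Tcf7 at a log2 fold change of -0.15 (edgeR's adjusted p = 0.00852) and Id3 at -0.31 (edgeR's adjusted p = 0.046). Leaving out a low DMSO library by itself deepens a fall. Without DMSO library 2 the values were -0.04 for Tcf7 (edgeR's adjusted p = 0.709) and -0.19 for Id3 (0.295). Without DSF library 3 they were -0.11 for Tcf7 (edgeR's adjusted p = 0.263) and -0.32 for Id3 (0.0579). For Id3 that fall is as large as the fall without DMSO library 1. The groups did not overlap in TPM for 8 of the 10 genes, all lower with DSF, against 12.5% of all tested genes lower in that way. In CPM it was the same number of genes, against 17.9% of all tested genes.

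Because the falls were unequal, the proportions within some pairs, picked with results known, shifted, which is given here as ratios of TPM with no test. Some other opposing factors kept their proportion in TPM. Lef1 and Bach2 fell to 0.751 and 0.739 of their mean TPM in DMSO, and Tbx21 to 0.742. By edgeR's fold change, Lef1 and Tbx21 were again alike, at 0.732 and 0.729 of their DMSO levels, but Bach2 fell less, to 0.818. In TPM, Irf8 and Irf4 fell less than Bach2, to 0.786 and 0.939, so these shifts do not all favour the memory side. By edgeR's fold change Irf4 again fell less than Bach2, to 0.924, but Irf8 fell further than Bach2, to 0.768. The ratio of Tcf7 to Prdm1 was 5.31, 5.93 and 5.92 in DMSO and 9.83, 9.69 and 9.89 in DSF, 1.71 times as high on average. The ratio of Bach2 to Prdm1 averaged 1.82 ± 0.259 in DMSO and 2.4 ± 0.123 in DSF (SD, n = 3), and its groups were apart. The ratio of Id2 to Id3 averaged 8.28 ± 0.894 and 6.45 ± 0.622, and that of Tbx21 to Eomes 2.05 ± 0.109 and 1.84 ± 0.0719, both lower in each DSF library than in any DMSO library. Within pairs on 1 side, Tcf7 to Lef1 went from 1.34 ± 0.0466 to 1.7 ± 0.0977 and Irf4 to Irf8 from 0.589 ± 0.00656 to 0.703 ± 0.019. Tcf7 gained on its partner in both of its pairs, as Bach2, Id3, Eomes and Irf4 did in theirs.

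Over the 6 libraries, the genes of at least 5 CPM whose log2 CPM followed Prdm1 most closely were Irgm1 (Pearson's r = 0.9982), Myo10 (0.9981) and Igtp (0.9978), out of 10210 genes, members included. Irgm1 and Igtp encode immunity-related GTPases and Myo10 an unconventional myosin. Their log2 fold changes were -0.40, -0.52 and -0.60, all called lower. Among the members, Irf8 followed Prdm1 most closely (r = 0.9977) and Tcf7 least (r = 0.5027). The closest to Tcf7 were Dhx8 (r = 0.9918), Psenen (0.9915) and Bud23 (0.9878), none of them called. These correlations describe 6 libraries that all share the same group difference and carry no test.

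Related genes outside the set went both ways. In 8 lists of related genes, 78 of 86 genes were tested, of which 22 were called higher and 25 lower, with a median log2 fold change of -0.03. Among 13 other regulators of effector fate, 12 were tested, 6 fell and 2 rose, at a median of -0.17. Gfi1, a zinc-finger transcriptional repressor gene, fell from 155 ± 6.42 to 98.2 ± 5.77 CPM (log2 fold change -0.66 ± 0.05 SE). Hif1a, the hypoxia-response factor, fell from 415 ± 20 to 338 ± 13.1 CPM, and Nfil3, a basic leucine zipper factor, from 43.8 ± 0.379 to 32.9 ± 1.13 CPM.

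Other regulators of memory and quiescence were split, with 5 of 13 higher and 6 lower and a median of -0.05. Myb, which supports stem-like memory cells, fell from 101 ± 2.45 to 67.4 ± 3.05 CPM, and Stat3 from 849 ± 19.4 to 691 ± 10.2 CPM. Ets1, a factor of naive T cells, rose from 381 ± 7.55 to 512 ± 9.51 CPM.

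Among 7 other interferon regulatory factors, Irf2 fell to 0.841 of its DMSO level and Irf1 rose 1.08-fold, at a list median of 0.10. Leaving out any 1 of DMSO libraries 1 and 3 and DSF libraries 2 and 3 ended the call of Irf1 (edgeR's adjusted p = 0.0639, 0.0604, 0.113 and 0.191). Of 10 DNA-binding partners of IRF4 and IRF8, 9 were tested, 3 rose and 2 fell. Junb, the AP-1 subunit that pairs with BATF, rose from 153 ± 7.47 to 192 ± 1.65 CPM, whereas the Ikaros family genes Ikzf3 and Ikzf1 fell to 0.818 and 0.874 of their DMSO levels. The calls of Irf2, Irf1 and Ikzf3 ended on log2(TPM + 1) values (limma's adjusted p = 0.088, 0.0971 and 0.172). Exons of Junb overlap Prdx2 on the opposite strand over 7.5% of their bases. Among 9 relatives and cofactors of TCF-1 and LEF1, 8 were tested. The corepressor gene Tle3 fell to 0.767, a call that ended on log2(TPM + 1) values (limma's adjusted p = 0.0724), and the beta-catenin gene Ctnnb1 rose 1.09-fold, and exons of Ctnnb1 overlap Ulk4 on the opposite strand over 14.6% of their bases.

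Genes that mark effector cells and genes that mark naive or memory cells were also counted. Of 15 genes of the effector phase, 12 were tested, 7 were called lower and 1 higher, with a median of -0.33. Il2rb, the shared beta chain of interleukin receptors, fell from 1452 ± 62.7 to 983 ± 46.2 CPM and the granzyme B gene Gzmb from 2698 ± 88.2 to 2142 ± 26.5 CPM. Of 14 genes of naive and memory cells, all tested, 8 were called higher and 2 lower, with a median of 0.20. Cd44 rose 2.3-fold, to 342 ± 9.95 CPM, and Ccr7, a homing receptor for lymph nodes, rose 1.49-fold, to 459 ± 15.5 CPM. Cd44 also rises on activated cells, so its place in that list is not specific to memory. Il7r, the interleukin 7 receptor chain, fell from 215 ± 2.64 to 159.9 ± 4.19 CPM.

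**Figure D3:**
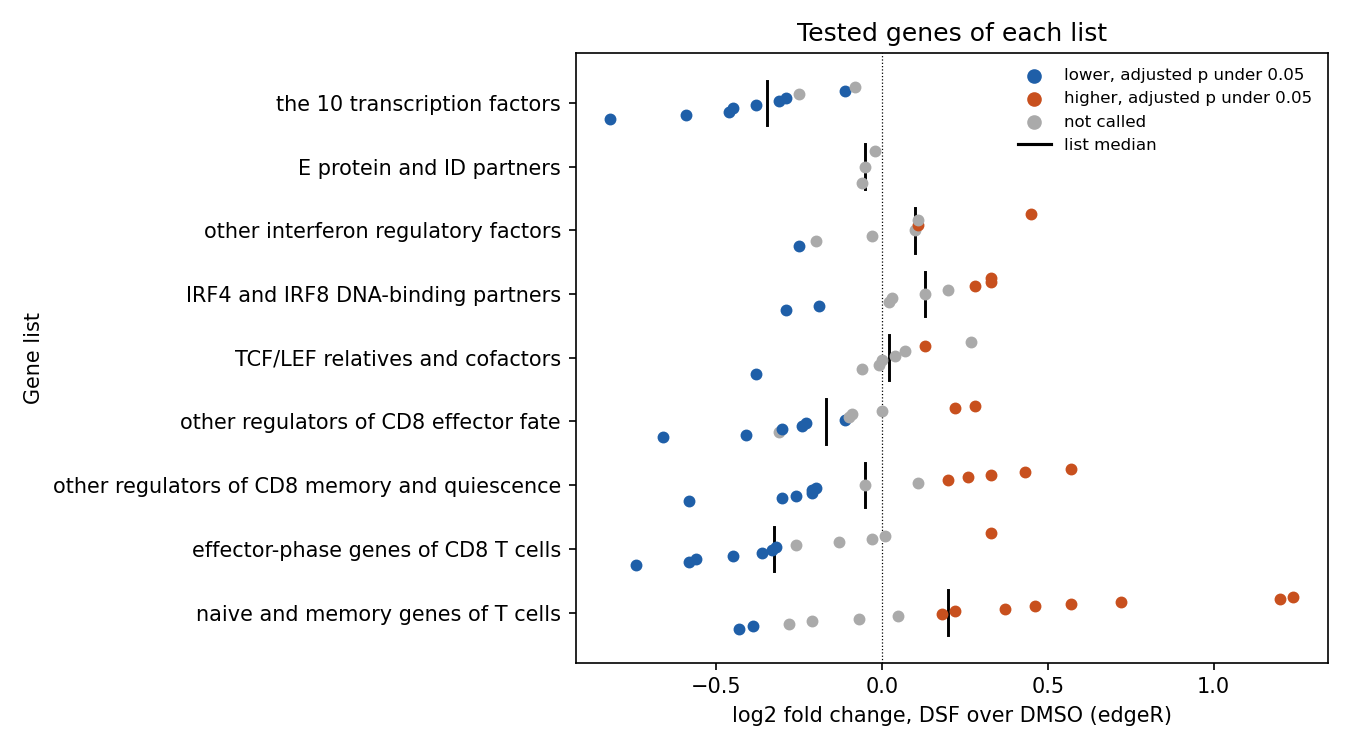
Log2 fold change of every tested gene of each list by edgeR (points, with blue for genes called lower, orange for genes called higher and grey for the rest) and the list median (black line). The 10 transcription factors and the 3 tested E protein genes lie below 0, and the other 7 lists have points on both sides.

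Several members are also expressed by other cell types. The myeloid and dendritic cell list had 9 of 14 genes tested, of which 3 were lower by edgeR, 2 by limma-voom and 1 by DESeq2. In that list 0 were higher by any of these tools or at an unadjusted p under 0.05. Its summed level was 165 to 175 TPM in DMSO and 157 to 168 TPM in DSF, mostly from Bst2, and Siglech and Cd209a were at 0 in every library. Xcr1, a receptor of cross-presenting dendritic cells, fell from 10.7 ± 1.59 to 5.38 ± 1.1 CPM. In the same list Clec9a had 1 count in DMSO library 1 and 0 in every other library. Flt3 had 2 to 9 counts per library, and neither was tested, so the fall of Xcr1 does not show a loss of such cells. The calls of Clec10a and Mpeg1 in that list each ended without 1 of several libraries. For Clec10a these were DMSO library 2 and DSF libraries 1 and 3 (edgeR's adjusted p = 0.182, 0.0611 and 0.17). For Mpeg1 they were DMSO libraries 1 and 3 and DSF libraries 1 and 3 (edgeR's adjusted p = 0.0826, 0.177, 0.0603 and 0.246), and it was not called by DESeq2 (adjusted p = 0.138) or limma-voom (0.0553).

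None of 10 B cell markers, 8 of them tested, was called by edgeR, DESeq2 or limma-voom, with 1 lower at an unadjusted p under 0.05, and their sum was 28.7 to 33.3 TPM in DMSO and 32.1 to 34.3 TPM in DSF. Of 5 plasma cell markers, Sdc1 fell from 4.49 ± 0.775 to 2.48 ± 0.623 CPM, a call that ended on log2(TPM + 1) values (limma's adjusted p = 0.103). Tnfrsf17 was at 0, and the sums of that list were 13.7 to 14.7 TPM in DMSO and 14 to 15.7 TPM in DSF. The 5 natural killer cell markers, 2 of them tested, gave no call by any of these 3 tools and none at an unadjusted p under 0.05, with sums of 6.55 to 7.42 and 6.2 to 8.19 TPM. Of 5 CD4 and regulatory T cell markers, Zbtb7b was called higher and Ikzf2 lower, the latter not without DSF library 1 (edgeR's adjusted p = 0.0824). Neither call held on log2(TPM + 1) values (limma's adjusted p = 0.927 and 0.368), where Zbtb7b had a log2 fold change of 0.03 against 0.27 in CPM. The summed levels of this list were 18.4 to 24.2 TPM in DMSO and 20.9 to 21.7 TPM in DSF. Of 10 T cell markers, Cd3g, Cd247, Cd8a and Lat fell and Cd2 rose, with a median of -0.09. Exons of Cd247 overlap Pou2f1 on the opposite strand over 56.4% of their bases. On log2(TPM + 1) values the calls of Cd3g and Lat ended (limma's adjusted p = 0.0639 and 0.0738). The part of these markers in the falls of the 10 genes was not tested.

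A further deposited table by the authors holds fold changes for another group, coded DC, which the labels do not explain and of which no library was analysed here. In the authors' deposited table, DF against DO had 8 of the 10 genes lower at an adjusted p under 0.05, against 4.08% of the genes given a test, and none higher, against 4.47%. For DC against DF, the authors' deposited table had 7 of the 10 genes higher, where 3.18% of genes given a test were higher, and 1 lower, where 3.94% were. For DC against DO it had 1 of the 10 lower, where 0.267% were lower, and none higher, where 0.0779% were. These comparisons share the DF or DO libraries, so they are not independent of each other.

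The authors' deposited table gives Prdm1 log2 fold changes of -0.82 for DF against DO, 0.75 for DC against DF and -0.07 for DC against DO. For Id2 the authors' deposited table gives -0.59, 0.47 and -0.12 in the same order, and for Lef1 it gives -0.45, 0.40 and -0.05. Irf4 is lower in all 3 comparisons of the authors' deposited table, at -0.11, -0.10 and -0.21 (adjusted p = 0.0041, 0.0115 and 1.31e-07). Id3, not called for DF against DO, has 0.43 for DC against DF in the authors' deposited table (adjusted p = 0.0237). Tcf7 was called in none of the 3 comparisons of the authors' deposited table, at -0.08, 0.02 and -0.06. No member carries the authors' own mark of significance in these comparisons, which in DF against DO goes to 189 genes, all with an absolute log2 fold change of at least 1.

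**Figure D4:**
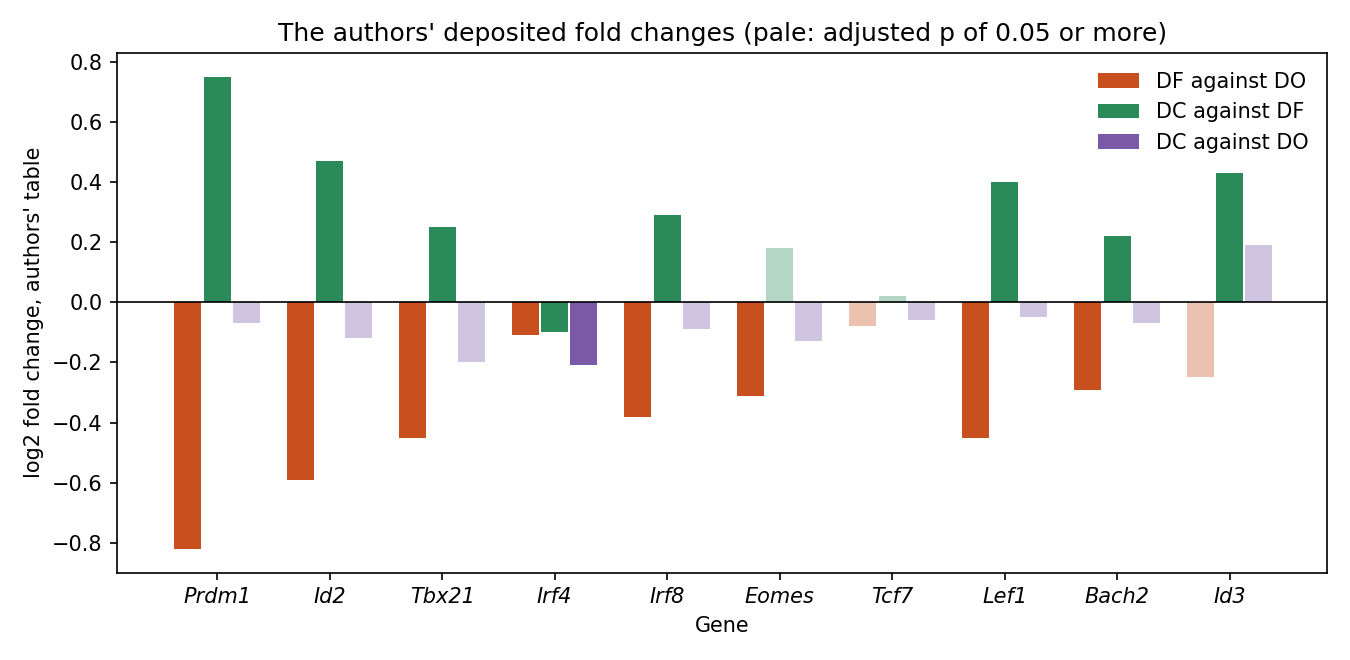
Log2 fold changes of the 10 genes in the authors' deposited table for DF against DO (orange), DC against DF (green) and DC against DO (purple), pale where the adjusted p was 0.05 or more. Irf4 is the one gene with 3 full-colour bars, all below 0.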

How the data were processed

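RNA-seq libraries were made from total RNA with a SMARTER kit, per the labels' protocols. Per the submitters' processing notes, GRCm38 (mm10) was the genome. The aligner, counter, annotation and strandedness are named in no source used here. Expected counts, not normalised, stand in the deposited table, and 31.58 to 32.91% of those above 0 in a library are not whole. It also holds the authors' TPM per library and per group, per the file headers, and a length of unstated kind. The authors' fold changes as a ratio and as log2, with p-values and adjusted p-values, stand in the deposited tables, titled as DESeq2 output. A floor of 3 counts, which covers counting error only, was worth 0.137 to 0.166 CPM at the depths of these libraries.

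Columns carry the letters A and B and a number, read as the replicate number of the labels. The deposited DO and DF means equal the A and B means in all 55536 genes within 0.0001 TPM, and the crossed means in 28853. Of the columns per library, 0 were left unused.

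Expected counts were rounded, filtered with filterByExpr (14318 genes kept, 41218 removed), scaled by TMM (factors 0.9952 to 1.0053) and tested for the group term with glmQLFit and glmQLFTest, robust, from edgeR 4.0.16 (R 4.3.3). Calls used a Benjamini-Hochberg adjusted p under 0.05 over all tested genes. Standard errors were approximated by dividing each log2 fold change's size by the root of its F statistic, and 95% intervals follow from them. CPM are scaled by TMM. Alternatives were other scalings, filters and tests (DESeq2 1.42.0, limma 3.58.1), unrounded counts, a replicate block, TPM with pseudocounts of 1 and 0.1, and leaving out each library. The fit was tested on simulated data. The members and lists were chosen with earlier results of these data known. Named genes were the members, the 3 called genes with the smallest p of each list of related genes, the 3 genes of at least 5 CPM closest to Prdm1 and to Tcf7 by correlation of log2 CPM (prior count 2), and marker genes that were called or at 0. Some genes that this rule gives are not reported here. Other genes named were chosen after their values were seen.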

Additional observations from a re-analysis of the deposited data

How the results depend on the processing

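All 10 genes kept a negative log2 fold change under each of 16 alternatives. Members called lower numbered 8 under both other scalings, DESeq2, limma-voom, both other filters and unrounded counts, 6 on either TPM scale and 7 to 10 with 1 library left out. Members called higher numbered 0 throughout. The number of genes changed was 3276, and 2565 to 2972 with 1 library left out. It was 1348 on log2(TPM + 1) and 1338 on log2(TPM + 0.1), and the cause was not tested. On the smaller pseudocount limma's adjusted p was 0.0506 for Bach2 and 0.205 for Irf4. Among the other named genes, 45 values of 14 genes lost the call, most of them on the TPM scales, and 0 reversed. Same-numbered libraries of the groups deviated together only weakly (r of 0.035 to 0.055), though each correlated best with its own number. The labels do not say that a number pairs libraries. With the replicate block 3829 genes changed, and 8 members were lower and 0 higher. Id3 had the fewest counts of the 10 genes, and the part of depth in its missed call was not tested.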

Other observations

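Several related genes, chosen after their values were seen, went the other way from the 10 transcription factors. Il6ra, the interleukin 6 receptor chain, rose from 5.26 ± 0.185 to 12.4 ± 0.635 CPM, and Btla, an inhibitory receptor of lymphocytes, from 14 ± 1.33 to 23 ± 2.48 CPM (mean ± SD over 3 libraries). Klf2, a quiescence factor that drives homing receptors, rose from 12.9 ± 0.698 to 19.1 ± 0.844 CPM. Zeb1 and Foxp1, factors of memory and quiescence, rose 1.26-fold and 1.15-fold, calls that ended on log2(TPM + 1) values (limma's adjusted p = 0.209 and 0.149). Batf3, a partner of IRF4 and IRF8 in DNA binding, rose 1.26-fold while both of those fell. By edgeR's test all 6 were called higher. The standard deviation of TPM was smaller in DSF than in DMSO for all 10 transcription factors, and for 52.4% of all tested genes. In CPM it was so for 9 of the 10, not for Eomes, and for 55.1% of all tested genes. All 10 also had a lower mean TPM in DSF. By edgeR all 10 had a negative log2 fold change, whereas 50.6% of all tested genes did. The part of the mean level in the smaller spread was not tested.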
